A study of Homo sapiens with 45 samples.

Results

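The 33 genes described here encode proteins of the synaptic vesicle and of the active zone, the patch of membrane where a nerve terminal releases transmitter. They were taken from a fixed list of gene symbols and matched through GENCODE release 29 to the rows of the deposited tables. All 33 were found among 58233 genes. They comprise 5 synaptotagmins, 4 SNARE proteins, 4 SNARE regulators, 10 vesicle proteins, 7 genes of the active zone and of adhesion, and 3 genes of endocytosis. Positions are given in GRCh38.

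Polyadenylated RNA was sequenced from cells derived from H9, an established line of human embryonic stem cells, on 15 days of differentiation towards motor neurons. On days 1, 2 and 4 to 15 the cells were in retinoic acid (RA, 100 nM) together with SAG (500 nM), which turns on Hedgehog signalling through Smoothened. On day 0 the cells carried the label control; all cells had been brought to a neuromesodermal progenitor state beforehand with CHIR99021, bFGF, SB431542 and DMH1, and were dissociated and replated with a ROCK inhibitor that was later removed. Each day has 3 libraries, 45 in all, and day 3 has none. The cell type label reads neural progenitor cells derived from ES cells on every day. The libraries are named only as biological replicates of 1 cell line, so the p-values measure the spread between these samples. Library totals ran from 22835823 to 39066247 counts, and mitochondrial genes held 1.795% to 5.287% of them.

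At a synapse, calcium that enters the terminal binds a synaptotagmin on a docked vesicle. The vesicle SNARE then zips together with its partners on the cell membrane and the vesicle fuses. Scaffolds of the active zone hold vesicles near calcium channels, and dynamin and its helpers bring the membrane back. Many of these genes carry a binding site (RE1) for REST, a repressor known for silencing neuronal genes outside neurons, and synapsin 1 is a textbook case of such a gene.

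The RE1 letters are shown because SYN1 was the only member with the whole core among those with a promoter entry, and because SYN1 changed in the first 3 stages described below. RefSeq promoter entries (GRCh38.p14) were found for 27 of the 33 members. The stretch below is the 250 bases before the RefSeq start of SYN1, chrX:47619858-47620107, on the minus strand. It is read 5′ to 3′ along the gene, with the RE1 core and a cyclic AMP response element (CRE) in capitals.
SYN1: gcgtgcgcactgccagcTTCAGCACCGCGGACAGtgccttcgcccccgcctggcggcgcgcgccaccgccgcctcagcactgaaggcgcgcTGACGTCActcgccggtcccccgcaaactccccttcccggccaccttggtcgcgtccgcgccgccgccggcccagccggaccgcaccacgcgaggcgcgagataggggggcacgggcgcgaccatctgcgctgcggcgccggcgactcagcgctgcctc

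The core searched was TTCAGCACCNNGGACAG, on both strands. It was present in full in 5 of 35116 promoter stretches of the same length, a share of 0.0142%, and SYN1 was the only member among them. With up to 3 mismatches it was found in 1.05% of all stretches and in 3 members. In the windows below, capitals mark the bases that match the core.
SYN1: TTCAGCACCgcGGACAG
SV2C: TgCAGCACCagGGggAG
SYNJ1: gTCgaCACCatGGACAG
The SYN1 window (chromosome X, 47620074 to 47620090) ends 216 bases before the RefSeq start; the most upstream GENCODE start, at 47619943, lies inside the longer stretch shown above. The SV2C window (chromosome 5, 76083273 to 76083289) ends 93 bases before its RefSeq start but lies inside the gene as GENCODE gives it, which begins at 76083172. The SYNJ1 window (chromosome 21, 32728450 to 32728466) ends 55 bases before its RefSeq start. The CRE letters TGACGTCA, which overlap neither window, stood in 1.65% of all stretches and in SYN1 alone among the members. These matches describe letters and are no evidence of binding. REST mRNA itself had 53.5 ± 0.92 CPM on day 8 and 74.8 ± 5.7 CPM on day 4, a log2 change of -0.48 ± 0.07 (adjusted p = 3.43e-07). REST was not called on day 1 against day 0 or on day 4 against day 1, and it was higher on day 15 than on day 8 by 0.27 ± 0.07 (adjusted p = 0.00148). Whether REST bears on any member was not tested.

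Levels of 1 gene are given as CPM, counts scaled to library size with TMM factors, and genes are set against each other only in TPM, which is corrected for length. Values of a day are the mean ± SD of 3 libraries, or the 3 libraries in the order of their numbers. Changes are log2 changes ± SE of the later over the earlier day, from edgeR's quasi-likelihood F test, and a gene was called at a Benjamini-Hochberg adjusted p under 0.05 over all 19436 genes tested. All 33 members passed the filter on low counts and all 33 differed between some of the days, as did 91.5% of all genes tested. The 4 stages described share their boundary days, so a low or high value on day 1, 4 or 8 enters the stage before and the stage after it.

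Most members had their highest mean late, though several were well expressed from the start. The mean was highest on day 8 or later for 26 of the 33, and on day 10 or later for 15. These counts were not made over all genes tested, and many of the days sampled are day 8 or later. Another 3 members were highest on day 0 (SYN2, SV2A and NRXN3), 2 on day 1 (RAB3B and RIMS2), 1 on day 2 (DNM1) and 1 on day 6 (AMPH). The summed TPM of all 33 was 419 ± 13 on day 0, 378 ± 3.6 on day 1, 457 ± 9.7 on day 4, 925 ± 36 on day 8, 984 ± 36 on day 9, 809 ± 84 on day 10 and 968 ± 68 on day 15. In bulk RNA such as this, fewer cells of a type and less RNA per cell cannot be told apart.

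**Figure D1:**
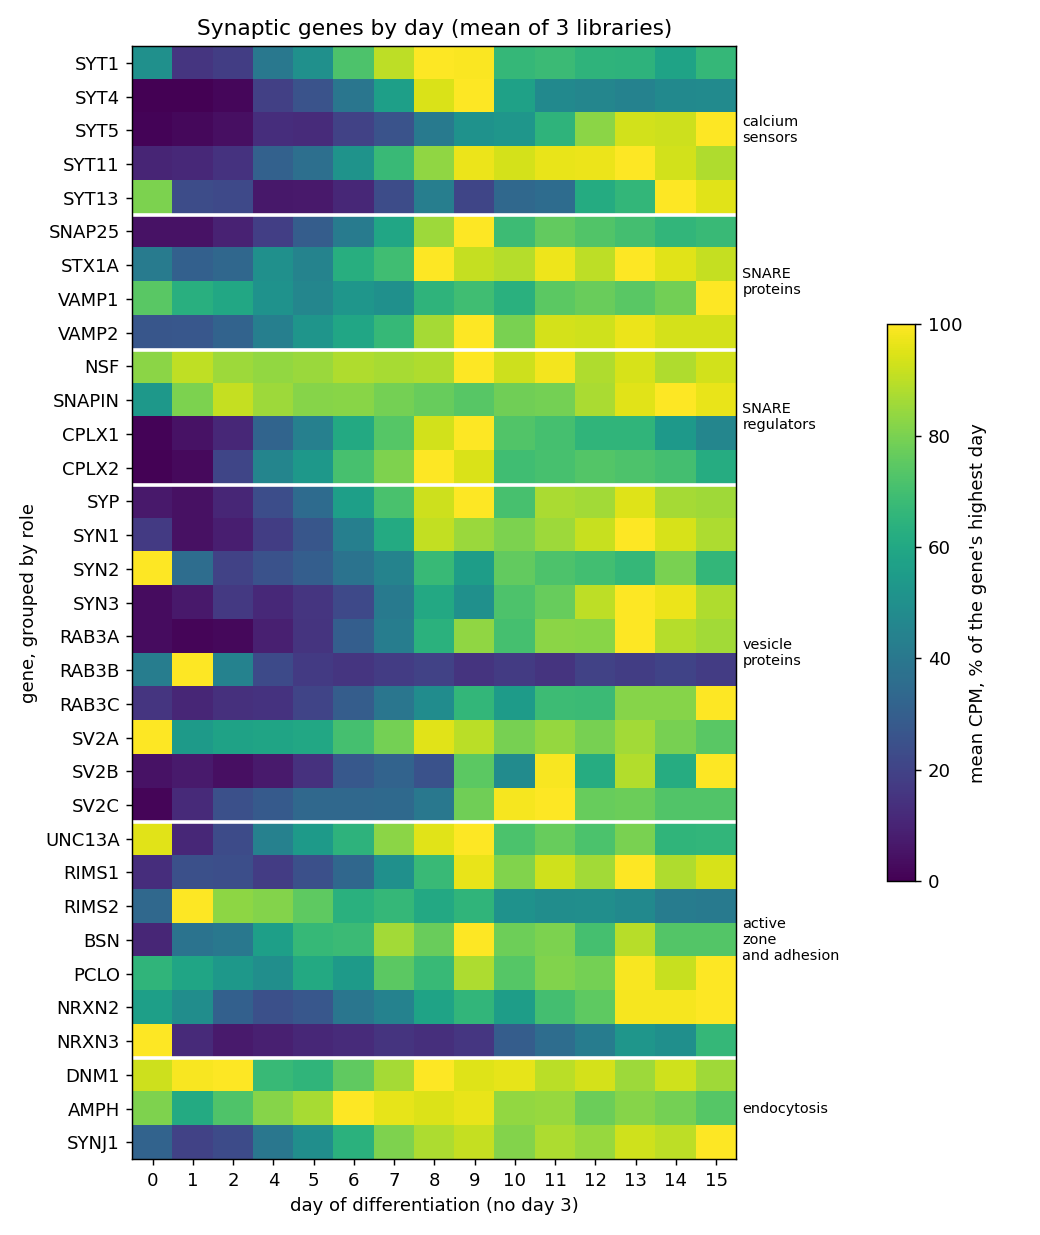
Mean CPM of each of the 33 genes (rows, grouped by role) on each of the 15 days (columns), as a percentage of the gene's highest day; each cell is the mean of 3 libraries. Most rows brighten from day 6 onwards, while SYN2, SV2A and NRXN3 are brightest on day 0, and RAB3B and RIMS2 on day 1.

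The size of the swing over time separated the members. The ratio of the highest to the lowest daily mean was over 10 for 13 members and under 2 for 5. The 5 were NSF, the ATPase that takes spent SNARE complexes apart (ratio 1.21), DNM1, the dynamin that cuts vesicles from the membrane (1.52), AMPH, a membrane-bending partner of dynamin (1.63), SV2A (1.84) and SNAPIN, which binds SNAP25 and also serves in lysosome transport (1.87). The mRNA of NSF can share reads with near-identical pseudogene copies, so its level is uncertain. The mRNA swing was widest for SYT4 with a ratio of 2040 over a day 0 mean that rests on 5 counts, followed by CPLX2 with 145, CPLX1 with 120 and SYT5 with 118. The day 0 means of CPLX2, CPLX1 and SYT5, the lowest of each gene, also rest on few counts (54, 32 and 11).

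Several members were already well expressed in the cells of day 0. The day 0 mean was at 50% or more of the gene's highest day for 13 members and at 10 percent or less for 10. SV2A, a vesicle glycoprotein and the target of the drug levetiracetam, led the 33 on day 0 with 57.2 ± 2.03 TPM, ahead of NSF with 46.6 ± 3.69 TPM. DNM1 (39.2 ± 2.08 TPM) and SNAPIN (38.9 ± 0.853 TPM) came next and differed by less than their spread. The neurexins NRXN2 (35.5 ± 4.13 TPM) and NRXN3 (21.6 ± 2.67 TPM), which span the cleft to bind neuroligins, and SYT1 (31.3 ± 3.33 TPM) were also among the higher members. SNAP25, the SNARE that is often used to mark terminals, stood at 2.54 ± 0.297 TPM.

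In the comparison of day 1 with day 0, over the first day in RA and SAG, 11 members were higher and 13 lower, and 9 were not called. Of all genes tested, 61.7% were called, 30.1% higher and 31.7% lower, and the members' split lies close to this background. The median log2 change of the members was 0, and that of all genes tested was also 0. Of the 7 active zone and adhesion genes 3 were higher and 2 lower, and of the 10 vesicle genes 3 were higher and 5 lower. All 4 SNARE regulators were higher, although the call of NSF (0.13 ± 0.05) was lost without replicate 1 (adjusted p = 0.095) and without replicate 2 (0.16).

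The deepest falls were those of UNC13A, the Munc13 protein that primes vesicles for release (chromosome 19, 17601328 to 17688365), and of NRXN3 (chromosome 14, 78170373 to 79868290). UNC13A had 5.64, 5.71 and 6.92 CPM on day 1, against 51.5, 49.9 and 54.3 CPM on day 0, a log2 change of -3.1 ± 0.15 (adjusted p = 1.38e-19). NRXN3 had 6.24, 5.74 and 6.1 CPM on day 1, against 50.2, 46.5 and 57.2 CPM on day 0 (-3.09 ± 0.15, adjusted p = 6.59e-20). In both genes every day 1 library lay far below every day 0 library, as the libraries of these days did not overlap in 67.8% of all genes tested. SYT1, the fast calcium sensor of release, had 20, 21.9 and 19 CPM on day 1, against 67.1, 70.2 and 59 CPM on day 0 (-1.68 ± 0.13, adjusted p = 1.04e-13). SYN1, which tethers vesicles to the cytoskeleton, had 1.76, 1.49 and 1.17 CPM on day 1, against 4.66, 5.59 and 5.94 CPM on day 0 (-1.85 ± 0.25, adjusted p = 6.53e-08). SYT13, SYN2 and SV2A moved the same way, with log2 changes of -1.79 ± 0.13, -1.49 ± 0.15 and -0.88 ± 0.05.

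The vesicle, active zone and synaptotagmin genes held members that rose on day 1 and members that fell. The SNARE regulators had 4 higher and 0 lower, whereas the SNARE genes had 0 higher and 2 lower. The endocytosis genes also had 0 higher and 2 lower. RAB3B, a small GTPase of the family that docks vesicles (chromosome 1, 51907956 to 51990764), had 322, 331 and 334 CPM on day 1, against 140, 134 and 142 CPM on day 0 (1.25 ± 0.09, adjusted p = 2.47e-15). RIMS2, an active zone scaffold that binds RAB3, had 51.9, 52.9 and 49.2 CPM on day 1, against 17.2, 19 and 15.9 CPM on day 0 (1.56 ± 0.08, adjusted p = 3.64e-19). BSN, the giant scaffold bassoon, had 24.6, 27.1 and 27.6 CPM on day 1, against 7.12, 6.45 and 9.16 CPM on day 0 (1.8 ± 0.16, adjusted p = 9.12e-12). The libraries of the 2 days did not overlap in any of these 3 genes. SV2C and the complexins CPLX1 and CPLX2, small proteins that clamp the SNARE bundle, rose by 3.31 ± 0.3, 2.59 ± 0.37 and 1.82 ± 0.35, to means between 1.98 and 3.27 CPM on day 1.

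Markers of other cells moved in the same step. Of 18 neuron markers 8 were lower and 6 higher on day 1, and their summed TPM was 832 to 855 on day 1, against 1160 to 1210 on day 0. STMN2, a neuronal tubulin regulator, had 6.33 ± 0.32 CPM on day 1, against 250 ± 12 CPM on day 0, while 10 of 12 markers of neural progenitors and 10 of 12 markers of cycling cells were higher. Of the 12 astroglial markers 2 were higher and 4 lower. The part of these markers was not tested. The genes whose values stand in the preceding paragraphs, NSF apart, kept their calls whichever replicate number was left out of all days. STX1A and RAB3C lost theirs without replicate 1 (adjusted p = 0.12 and 0.085), SYT5 without replicates 1 (0.16) and 2 (0.27), and RIMS1 without replicate 3 (0.052). The call of VAMP1 was lost without replicates 1 (0.35), 2 (0.054) and 3 (0.081).

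From day 1 to day 4 more members rose than fell, though not in every role. On day 4, 19 members were higher than on day 1 and 8 lower, and 6 were not called. Of all genes tested, 47.2% were called, 24.4% higher and 22.8% lower. The members' median log2 change was 0.57 and that of all genes tested 0.01. Of the 5 synaptotagmins 4 were higher, as were 3 of the 4 SNARE genes and 6 of the 10 vesicle genes. The summed TPM of the vesicle genes was 90.2 ± 4.5 on day 4, against 93.2 ± 2.3 on day 1. Of the 7 active zone and adhesion genes 2 were higher and 3 lower. Their summed TPM was 46.7 ± 1.4 on day 4, against 60 ± 2.4 on day 1.

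SYT4, a synaptotagmin found on dense-core vesicles (chromosome 18, 43267878 to 43277650), had 18.3, 20.5 and 19.8 CPM on day 4, against 0.133, 0.0664 and 0.173 CPM on day 1, when 10 counts were recorded over the 3 libraries. The log2 change was 7.3 ± 0.44 (adjusted p = 2.79e-15). CPLX2 had 37, 35.5 and 36.4 CPM on day 4, against 2.02, 1.63 and 2.29 CPM on day 1 (4.21 ± 0.19, adjusted p = 2.19e-19). SNAP25, which supplies helices to the SNARE bundle, had 11.8, 12.4 and 12 CPM on day 4, against 3.75, 2.95 and 2.86 CPM on day 1 (1.91 ± 0.19, adjusted p = 2.25e-10). None of these 3 genes had a day 4 library within the range of day 1, as held for 54.2% of all genes tested. CPLX1, RAB3A and SYP, the abundant vesicle membrane protein synaptophysin, were higher by 2.68 ± 0.2, 2.51 ± 0.28 and 2.34 ± 0.23. UNC13A, low on day 1, had 24, 23.7 and 24.1 CPM on day 4, a change of 1.98 ± 0.15 that left it below its day 0 libraries.

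RAB3B went the other way, with 65.9, 85 and 71.6 CPM on day 4, against 322, 331 and 334 CPM on day 1 (-2.15 ± 0.09, adjusted p = 1.7e-21). SYT13, an atypical synaptotagmin that lacks calcium-binding residues, fell by 1.83 ± 0.18 to 0.85 CPM, its lowest day. NRXN2 had 24.4, 19.4 and 23.6 CPM on day 4, against 41.5, 43.3 and 50.9 CPM on day 1 (-1 ± 0.11, adjusted p = 2.91e-09). The count of members lower was 4 without replicate 1, when VAMP1, SYN2, RIMS2 and NRXN3 were no longer called (adjusted p = 0.14, 0.064, 0.081 and 0.2). Of the 18 neuron markers 17 were higher on day 4, with a summed TPM of 2180 to 2270 on day 4, against 832 to 855 on day 1; 6 of 9 motor neuron markers were higher, and 11 of 12 cycling and 6 of 12 astroglial markers lower. The part of these markers in the members' change was not tested.

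Between days 4 and 8 nearly the whole list rose. On day 8, 29 members were higher than on day 4 and only RIMS2 was lower, while NSF, SNAPIN and RAB3B were not called. Of all genes tested, 53.2% were called, 27.1% higher and 26% lower. The median log2 change was 1.14 over the members and 0 over all genes tested. Of the 29, 19 were at least 2-fold higher, whereas the 27.1% of all genes tested carries no such minimum. All 5 synaptotagmins, all 4 SNARE genes and all 3 endocytosis genes were among the 29.

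RAB3A, the main RAB3 protein of brain synapses (chromosome 19, 18196784 to 18204074), had 39, 36.5 and 43.2 CPM on day 8, against 4.86, 5.56 and 5.9 CPM on day 4 (2.87 ± 0.17, adjusted p = 7.53e-16). SNAP25 had 55.3, 54.3 and 56 CPM on day 8, against 11.8, 12.4 and 12 CPM on day 4 (2.19 ± 0.15, adjusted p = 1.43e-14). SYN1 (chromosome X, 47571898 to 47619943) had 30.4, 26.4 and 30.3 CPM on day 8, against 5.72, 4.52 and 7.31 CPM on day 4 (2.29 ± 0.18, adjusted p = 3.36e-13). In each of these genes the lowest day 8 library was several times the highest day 4 library, and 58.6% of all genes tested had no overlap between these days. SYN1 overlaps ARAF and TIMP1, and no source used here names the strand of counting, so reads of these neighbours could enter its level. The same holds for RAB3A with MPV17L2, STX1A with BUD23, VAMP1 with TAPBPL, SNAPIN with ILF2, DNM1 with CIZ1, VAMP2 with AC129492.3 and RIMS2 with AC012213.5. AC129492.3 lies on the strand of VAMP2, so its reads could enter the level of VAMP2 under stranded counting as well. SYT13, SYN3 and SYT4 were higher by 2.72 ± 0.17, 2.37 ± 0.18 and 2.33 ± 0.19. The rises of BSN (0.46 ± 0.14), PCLO (0.46 ± 0.14) and VAMP1 (0.35 ± 0.11) were among the smallest, and all 3 lost their calls without replicate 1 (adjusted p = 0.051, 0.11 and 0.1) and without replicate 3 (0.086, 0.22 and 0.079).

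The same step raised all 18 neuron markers and 8 of 9 motor neuron markers. Their summed TPM was 6810 to 7580 on day 8, against 2180 to 2270 on day 4, for the neuron markers, and 143 to 158 on day 8, against 49.8 to 51.2 on day 4, for the motor neuron markers. Of 9 neuroendocrine markers, whose products sit in dense-core vesicles, 8 were higher as well, and CHGA had 38.7 ± 2.9 CPM on day 8, against 6.22 ± 0.4 CPM on day 4. Of 12 astroglial markers 6 were higher and 0 lower, with a summed TPM of 594 to 648 on day 8, against 229 to 279 on day 4; SLC1A2 was higher by 2.46 ± 0.1 and ID3 by 2.15 ± 0.14, while GFAP stayed at or below 0.633 CPM as a daily mean on all 15 days. Of 8 mesoderm, muscle and fibroblast markers tested 5 were higher and 0 lower, and all 12 markers of cycling cells were lower. The part of these cell types in the members' rise was not tested.

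**Figure D2:**
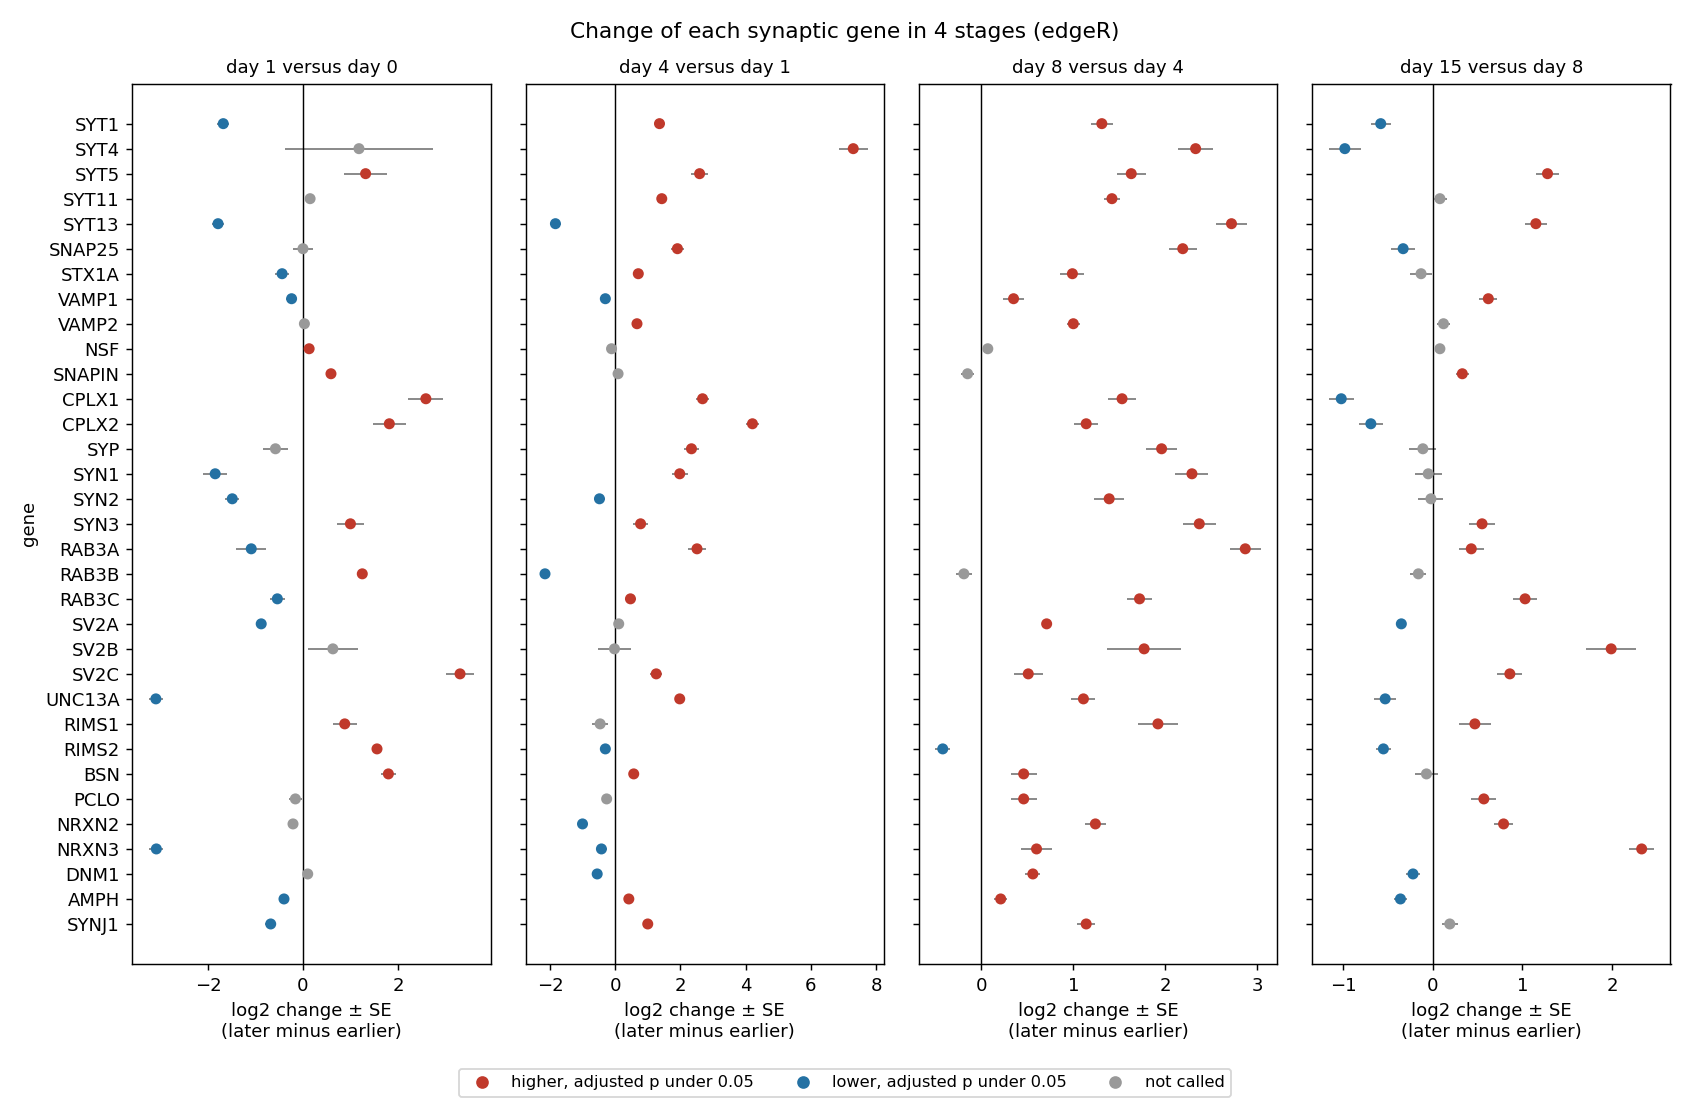
Log2 change ± SE (later minus earlier day, edgeR) of each of the 33 genes in 4 stages, each panel with its own horizontal scale; red points are called higher, blue lower, and grey not called. Points lie on both sides of 0 in the first stage (11 higher, 13 lower), almost all to the right of it from day 4 to day 8 (29 higher, 1 lower), and on both sides again from day 8 to day 15 (13 higher, 10 lower).

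After day 0 the members did not all reach 50% of their highest mean on the same day. VAMP1, NSF, SNAPIN, RAB3B, SV2A, RIMS2, PCLO, DNM1 and AMPH were at 50% or more of their highest mean already on day 1. Of the other 24, STX1A and BSN first reached that mark after day 0 on day 4. They were followed on day 5 by SYT1, VAMP2, CPLX2 and UNC13A, and on day 6 by SYT11, CPLX1, SYP and SYNJ1. SYT4, SNAP25, SYN1 and RIMS1 reached that mark on day 7, and SYN2, SYN3, RAB3A and NRXN2 on day 8. The last were SYT5, RAB3C, SV2B and SV2C on day 9, SYT13 on day 12 and NRXN3 on day 13. SYT1, SYT13, SYN2, UNC13A, NRXN2 and NRXN3 had already been at 50% or more on day 0, so they fell and came back. NRXN2 lay just under the mark on day 1, at 49%. STX1A was below the mark again on day 5, with 5.03 ± 0.648 CPM against a highest mean of 11.2 CPM. This order uses daily means alone, and neighbours 1 day apart were not tested against each other.

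After day 8 the list split. On day 15, 13 members were higher than on day 8 and 10 lower, and 10 were not called, against 50.7% of all genes tested called, 24.9% higher and 25.8% lower. The median log2 change was 0.08 over the members and 0 over all genes tested. Of the 10 vesicle genes 5 were higher and 1 lower, and of the 7 active zone and adhesion genes 4 were higher and 2 lower.

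NRXN3 changed most. It had 31.9, 28.9 and 41.7 CPM on day 15, against 7.67, 6.35 and 6.43 CPM on day 8 (2.33 ± 0.14, adjusted p = 3.38e-16). Its daily mean was 8.06 CPM on day 9, 15.1 on day 10, 18.3 on day 11, 21.6 on day 12, 26.9 on day 13 and 25.5 on day 14. It thus came back to 66.7% of its day 0 level, having been at 13.3% of it on day 8. NRXN2 (chromosome 11, 64606174 to 64723188) had 99.6, 94 and 83.4 CPM on day 15, against 54, 50.5 and 55.7 CPM on day 8 (0.79 ± 0.11, adjusted p = 8.06e-08).

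RAB3C had 119, 119 and 117 CPM on day 15, against 56.8, 57.7 and 59.7 CPM on day 8 (1.03 ± 0.13, adjusted p = 5.03e-08). SYT5, a calcium-binding synaptotagmin also found on dense-core vesicles, had 14.4, 13.8 and 11.4 CPM on day 15, against 5.49, 5.5 and 5.25 CPM on day 8 (1.28 ± 0.13, adjusted p = 1.12e-10). SV2B, the least expressed of the SV2 glycoproteins, had 2.41, 4.11 and 3.18 CPM on day 15, against 0.984, 0.536 and 0.923 CPM on day 8 (1.99 ± 0.28, adjusted p = 1.46e-07). All the day 15 libraries of these 3 genes lay above those of day 8, and 57.4% of all genes tested had no overlap in either direction. SYT13, SV2C, VAMP1, PCLO, SNAPIN, SYN3, RIMS1 and RAB3A were also called higher, by 0.33 to 1.15 on the log2 scale. Of these, SYN3, RAB3A and RIMS1 lost their calls without replicate 1 (adjusted p = 0.079, 0.21 and 0.15), and RIMS1 also without replicate 2 (0.091).

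The members that fell after day 8 included several of those that had risen most before it. CPLX1 had 19, 20.2 and 14.9 CPM on day 15, against 35.1, 36.2 and 38.5 CPM on day 8 (-1.02 ± 0.14, adjusted p = 1.88e-07). SYT4 had 51.2, 54.7 and 43.6 CPM on day 15, against 96.5, 93.2 and 105 CPM on day 8 (-0.98 ± 0.18, adjusted p = 1.96e-05). SYT1 had 86.9, 90.5 and 82.9 CPM on day 15, against 124, 127 and 138 CPM on day 8 (-0.58 ± 0.11, adjusted p = 6.41e-05). The day 15 libraries of these genes lay below all day 8 libraries but above those of day 1. CPLX2, RIMS2 and UNC13A fell by 0.69 ± 0.13, 0.55 ± 0.08 and 0.53 ± 0.12, and AMPH, SV2A, SNAP25 and DNM1 by 0.36 or less. The call of SNAP25 (adjusted p = 0.037) was lost without replicate 1 (0.14) and without replicate 3 (0.17), and that of DNM1 (0.0203) without replicate 1 (0.13). In limma on log2(TPM + 1), DNM1 had a change of 0.02 in place of -0.22 and was not called (adjusted p = 0.95). Among the neuron markers 9 of 18 were lower and 7 higher on day 15, with a summed TPM of 5270 to 6420 on day 15, against 6810 to 7580 on day 8. Of the 12 astroglial markers 7 were higher and 2 lower, with a summed TPM of 924 to 1040 on day 15, against 594 to 648 on day 8, and with NFIA higher by 4.53 ± 0.2. All 12 cycling markers and 9 of 12 neural progenitor markers were lower on day 15. Of the 9 motor neuron markers 5 were lower and 3 higher, with a summed TPM of 99.1 to 127 on day 15, against 143 to 158 on day 8. The part of these cell types in the members' changes was not tested.

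Of the other SNARE partners, VAMP2 and STX1A were not called on day 15 against day 8, and VAMP1 was higher. VAMP2 averaged 28.7 ± 2.16 CPM on day 0, 29.4 ± 1.64 on day 1, 46.7 ± 3.02 on day 4, 93.5 ± 3.33 on day 8 and 101 ± 8.02 on day 15. It was higher by 0.67 ± 0.08 on day 4 than on day 1 and by 1 ± 0.07 on day 8 than on day 4 (adjusted p = 2.09e-09 and 2.36e-14), while it was lower by a log2 change of -0.32 ± 0.07 on day 10 than on day 9 (adjusted p = 0.000711, and 0.053 without replicate 3). STX1A, syntaxin on the cell membrane, averaged 4.65 ± 0.678 CPM on day 0, 3.43 ± 0.132 on day 1, 5.62 ± 0.323 on day 4, 11.2 ± 0.304 on day 8 and 10.2 ± 1.49 on day 15. VAMP1, a vesicle SNARE of motor terminals in mice, kept between 5.27 ± 0.453 CPM on day 4 and 10.3 ± 0.539 CPM on day 15 on the days compared here, with 7.66 ± 0.626 CPM on day 0.

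SYP, SYT11 and SYNJ1 were higher on day 4 than on day 1 and higher again on day 8 than on day 4, and were not called on day 15 against day 8. SYP averaged 3.72 ± 1.02 CPM on day 0, 2.47 ± 0.315 on day 1, 12.7 ± 1.54 on day 4, 49.3 ± 4.14 on day 8 and 45.7 ± 5.56 on day 15. SYT11, a synaptotagmin that does not bind calcium, averaged 9.77 ± 1.11 CPM on day 0, 10.8 ± 0.311 on day 1, 29.1 ± 1.71 on day 4, 77.7 ± 3.45 on day 8 and 82.1 ± 3.01 on day 15. On day 15 against day 8 their adjusted p was 0.584 and 0.445, and SYP was lower on day 10 than on day 9 (-0.5 ± 0.16, adjusted p = 0.0141, and 0.12 and 0.16 without replicates 1 and 3). Among the endocytosis genes, SYNJ1, the lipid phosphatase that strips the clathrin coat, averaged 10 ± 0.381 CPM on day 0, 6.23 ± 0.0744 on day 1, 12.5 ± 0.928 on day 4, 27.6 ± 1.12 on day 8 and 31.5 ± 1.18 on day 15. DNM1 and AMPH moved far less. The daily mean of DNM1 lay between 46.1 CPM on day 5 and 70.3 CPM on day 2. That of AMPH lay between 34.1 ± 2.26 CPM on day 1 and 55.7 ± 1.78 CPM on day 6. PCLO, the scaffold piccolo and partner of bassoon, averaged 13.5 ± 0.87 CPM on day 0, 10.2 ± 2.64 on day 4, 13.9 ± 1.83 on day 8 and 20.6 ± 1.19 on day 15. It was called higher on day 15 than on day 8 (0.57 ± 0.14, adjusted p = 0.000548), while BSN was not called (-0.07 ± 0.13), and the difference between these genes was not tested.

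Set over the whole course, 25 members were higher on day 15 than on day 0 with no overlap of the libraries, and 6 were lower. Among all genes tested these shares were 40.9% higher and 37.1% lower. The 6 lower members were SYN2, RAB3B, SV2A, UNC13A, NRXN3 and AMPH. On day 15, VAMP2, the main vesicle SNARE of the brain, led the members with 95 ± 8.33 TPM, and SNAPIN was next with 84.4 ± 4.99 TPM. In each day 15 library VAMP2 lay above SNAPIN (95.03, 103.35 and 86.7 TPM, against 84.61, 89.35 and 79.37 TPM). The difference was not tested. RAB3C (71.2 ± 1.66 TPM) and RAB3A (71 ± 6.32 TPM) followed at the same level, while SV2B was last with 1.17 ± 0.309 TPM.

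Within families the shares of the members shifted, and in the RAB3 and complexin genes the leading member changed as well. Shares are given of the summed TPM of the listed members, as a description without a test. Of the RAB3 genes, RAB3B held 42% ± 1 on day 0, 69.9% ± 0.95 on day 1, 25.2% ± 2.1 on day 4, 8.67% ± 0.47 on day 8 and 5.63% ± 0.26 on day 15. RAB3A held 5.5% ± 0.83 on day 0, 1.87% ± 0.51 on day 1, 17.3% ± 0.46 on day 4, 47.9% ± 1.8 on day 8 and 47% ± 1.5 on day 15. RAB3C led on day 0 with 52.5% ± 1.4, and held 28.2% ± 1.1 on day 1 and 57.5% ± 1.9 on day 4. It held 43.4% ± 2 on day 8 and 47.3% ± 1.7 on day 15, level with RAB3A. The family thus passed from RAB3B and RAB3C early to RAB3A and RAB3C late, while its summed TPM was 40.4 on day 0 and 151 on day 15.

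Of the synapsins, SYN1 and SYN2 shared the signal on day 0, with 47.1% ± 2.5 and 46.4% ± 0.12. On day 1 SYN1, SYN2 and SYN3 held 28.6% ± 9, 37.4% ± 13 and 33.9% ± 11, within their spread. On day 2 SYN3 (43.8% ± 4.6) and SYN1 (41% ± 5.6) shared the lead. On day 15 SYN2 held 8.04% ± 2, SYN1 56.7% ± 3.4 and SYN3 35.3% ± 1.4. SYN2 and SYN3 overlap TIMP4 and TIMP3, which lie inside synapsin introns, so reads of those genes could enter these values. Of the RIM genes, RIMS2 held 93.1% ± 0.76 on day 0, 95.5% ± 1.2 on day 4, 83.7% ± 1.6 on day 8 and 71.1% ± 1.8 on day 15, so that RIMS1 gained ground without overtaking it. SV2A held 99.8% ± 0.054 of its family on day 0 and 91% ± 1.3 on day 15, and at least 90.5% on every day. Of the complexins, CPLX1 held 73.2% ± 5.5 on day 1, when the family summed to 2.33 TPM. It held 37.2% ± 5.4 on day 2, when CPLX2 led with 62.8% ± 5.4. Later CPLX1 held 50.2% ± 3.4 on day 4, 55.5% ± 1.6 on day 8, 61.3% ± 1.7 on day 9 and 49.4% ± 1.3 on day 15.

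**Figure D3:**
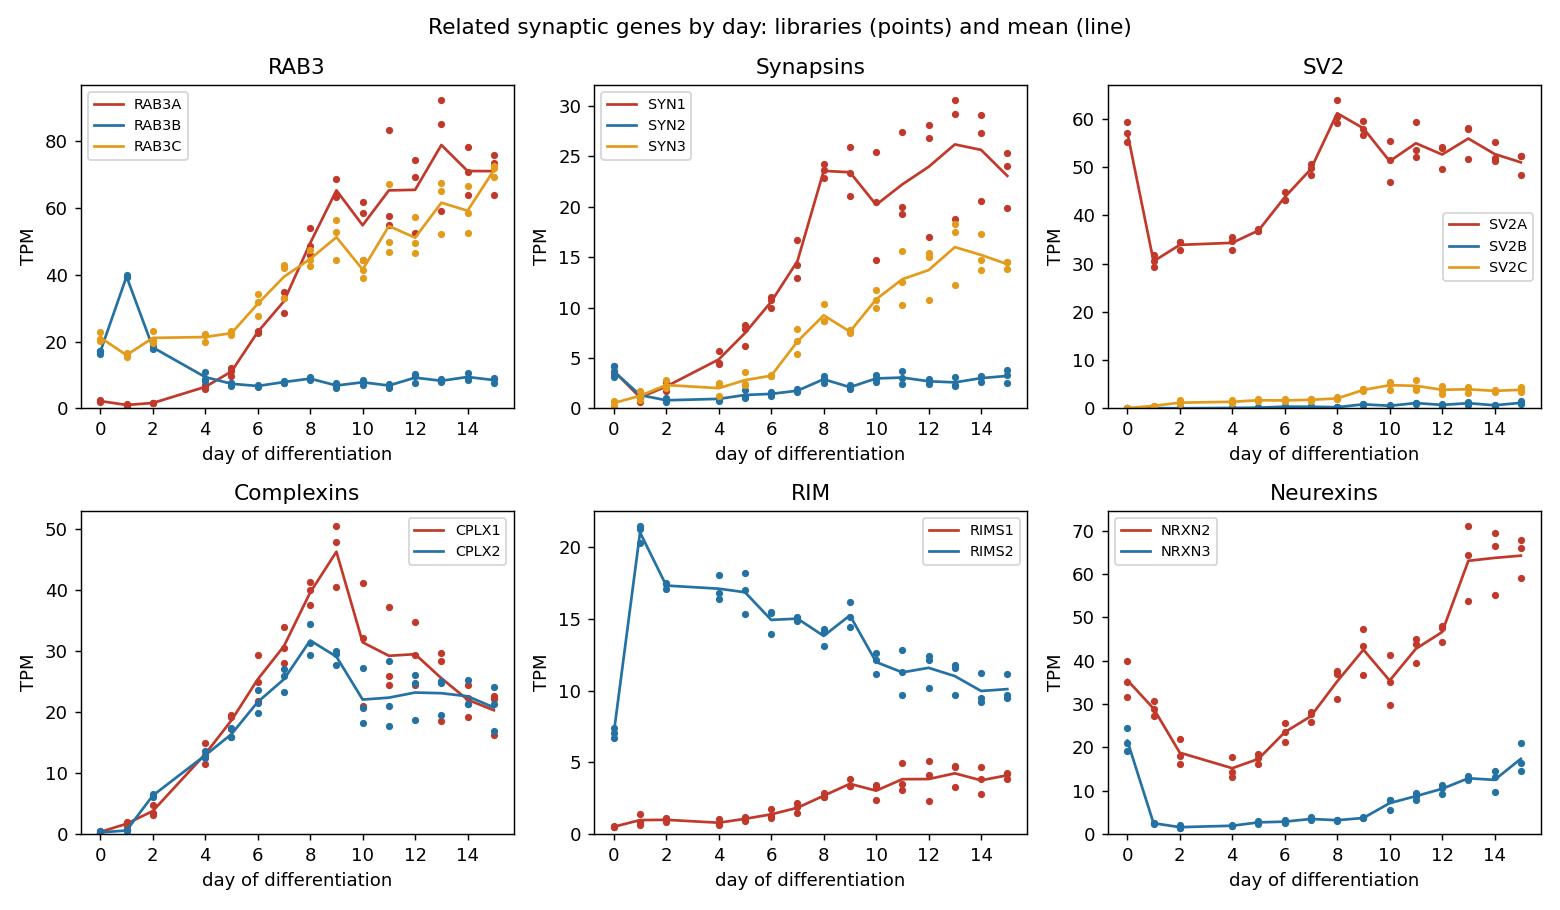
TPM of related genes by day in 6 families; points are libraries (3 per day) and lines join the daily means. RAB3B peaks on day 1 while RAB3A and RAB3C climb after day 5, SYN2 falls behind SYN1 and SYN3, SV2A stays far above SV2B and SV2C, and NRXN3 returns after day 9.

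Between days 9 and 10 more members fell than rose. On day 10, 12 members were lower than on day 9 and 4 higher, and 17 were not called, against 29.6% of all genes tested called, 13.7% lower and 15.9% higher. The median log2 change was -0.2 over the members and 0 over all genes tested. SYT4 had 59.3, 72.5 and 46.5 CPM on day 10, against 107, 94.1 and 112 CPM on day 9 (-0.81 ± 0.18, adjusted p = 0.000585). SYT1 had 82.2, 97 and 81.1 CPM on day 10, against 130, 123 and 135 CPM on day 9 (-0.58 ± 0.11, adjusted p = 0.000204). The libraries of the days did not overlap in either gene, as in 39.3% of all genes tested. SNAP25 had 42.8, 50.7 and 39.9 CPM on day 10, against 66.2, 60.2 and 67.8 CPM on day 9 (-0.54 ± 0.13, adjusted p = 0.00197), and its call was lost without replicate 1 (0.079).

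The 4 members that were higher on day 10 were NRXN3 (0.91 ± 0.14), SYT13 (0.71 ± 0.14), SYN3 (0.53 ± 0.15) and SYN2 (0.44 ± 0.14). Of these, NRXN3 had 16.8, 11.3 and 17.2 CPM on day 10, against 8.11, 7.95 and 8.13 CPM on day 9. The count of members lower was 3 without replicate 1, 4 without replicate 3 and 16 without replicate 2. SYT1 and SYT4 were called lower in all 3 of these fits. SYN3 lost its call without replicate 1 (adjusted p = 0.15), and SYN2 without replicate 1 (0.1) and without replicate 3 (0.092).

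Markers of neurons and of other cell types moved in this step, though not all of them. Of the 18 neuron markers 11 were lower on day 10 and the other 7 were not called, with a summed TPM of 5310 to 7440 on day 10, against 8160 to 8900 on day 9. The summed TPM of the mesoderm, muscle and fibroblast markers was 344 to 717 on day 10, against 178 to 217 on day 9, with 3 of 8 tested higher and 0 lower, and the collagen gene COL1A1 had 1070 ± 410 CPM on day 10, against 261 ± 32 CPM on day 9. The muscle marker MYOD1 had no counts on either day. The summed TPM of the astroglial markers was 923 to 1230 on day 10, against 658 to 692 on day 9, with 6 of 12 higher and 3 lower. TNC had 442 ± 180 CPM on day 10, against 161 ± 27 CPM on day 9, while AQP4 and GFAP stood at 0.161 and 0.131 CPM on day 10. The part of these markers in the step was not tested.

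Within days 10 to 15 the libraries of a day differed in their neuron markers. On each of these 6 days 1 library had the lowest summed TPM of neuron markers, for example replicate 1 of day 11 with 5925 TPM, against 8970 TPM in replicate 3. The lowest libraries matched more often than the highest. In 23 of the 33 members the library with the lowest neuron marker sum was also lowest for the member on at least 5 of the 6 days, and the highest library was the same on at least 5 days in 8 of the 33. In SYT4 and SNAP25 both the lowest and the highest library were the same on all 6. For the lowest library, NRXN3 and SNAPIN matched on 1 day of 6 each, and SYN2 and VAMP1 had 2 of 6. On day 11, SNAP25 had 39.1, 43.5 and 65 CPM and RAB3C had 69.2, 72.4 and 103 CPM, in both cases highest in replicate 3. The members and the markers come from the same libraries, so these orders are not independent of each other. The counts were not made over all genes tested, so the matches are not shown to be particular to the members.

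**Figure D4:**
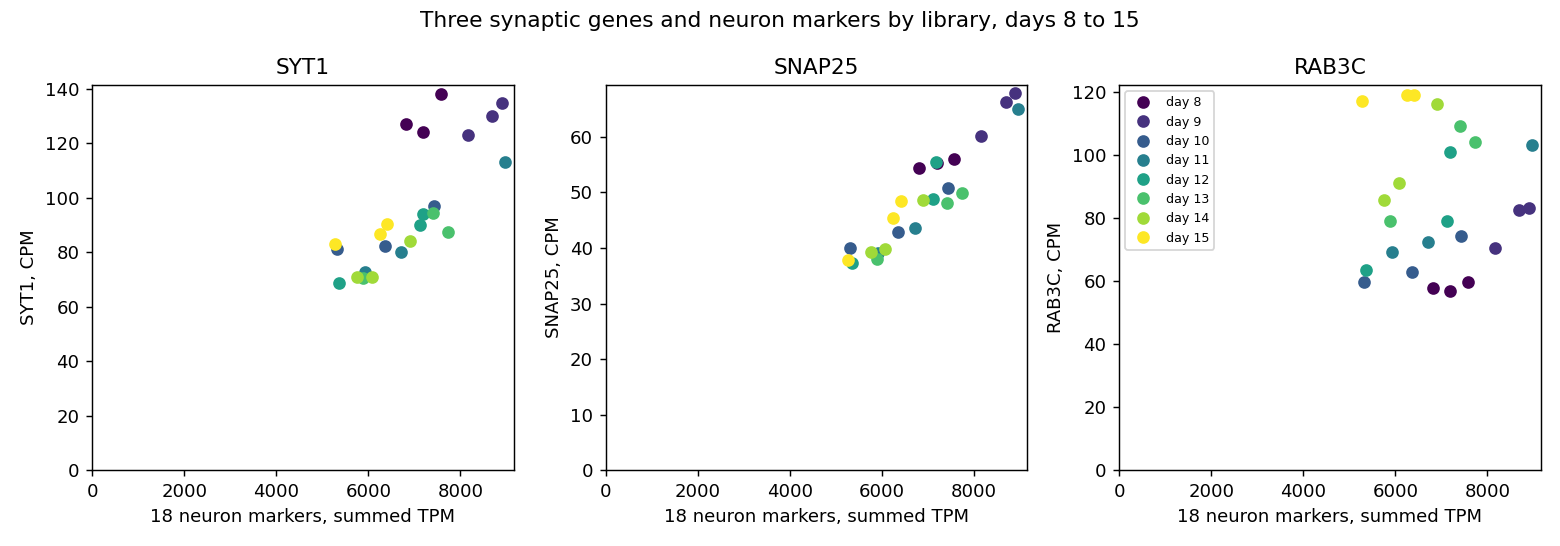
CPM of SYT1, SNAP25 and RAB3C (vertical axes) against the summed TPM of 18 neuron markers (horizontal axes) in each of the 24 libraries of days 8 to 15, coloured by day. SNAP25 ran from 37.2 to 67.8 CPM, and its 4 highest libraries, 3 of day 9 and 1 of day 11, also had the highest marker sums; SYT1 on days 8 and 9 lay above the later days, and RAB3C on day 15 lay above day 8 at a lower marker sum.

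Late changes were then read within even days and within odd days, since the medium was replaced every other day and the labels do not say on which. On day 14, 10 members were higher than on day 10 and 3 lower, against 32.8% of all genes tested called, 15.6% higher and 17.2% lower. On day 15, 8 members were higher than on day 11 and 5 lower, against 27.9% of all genes tested called, 12.9% higher and 14.9% lower. The median log2 changes were 0.12 and 0.01 over the members and 0 over all genes tested in both. These comparisons share no library. The 8 genes called higher in both, SYT5, SYT13, VAMP1, SNAPIN, RAB3B, RAB3C, NRXN2 and NRXN3, were 80% of those on day 14 and 100% of those on day 15, and 3 were lower in both (CPLX1, SV2C and RIMS2). The overlap was not counted over all genes tested, so these shares are not shown to be particular to the members.

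SYT13 had 12, 14.8 and 12.7 CPM on day 14, against 4.06, 5.08 and 4.22 CPM on day 10 (1.56 ± 0.12, adjusted p = 1.66e-12), and 12.8, 12.6 and 12 CPM on day 15, against 4.77, 4.09 and 5.06 CPM on day 11 (1.42 ± 0.12, adjusted p = 1.73e-11). NRXN3 was higher by 0.75 ± 0.13 on day 14 and by 0.9 ± 0.13 on day 15. Both genes kept their calls in these comparisons whichever replicate number was left out. Without replicate 1 only 5 members were higher on day 14 and 2 on day 15, and RAB3B, RAB3C and VAMP1 lost their calls in both (adjusted p = 0.23, 0.053 and 0.24 on day 14, and 0.52, 0.18 and 0.081 on day 15). The counts of members lower were 0 without replicate 1 and 1 without replicate 2 on day 14, and 3 without replicate 1 and 2 without replicate 3 on day 15.

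Odd and even late days differed little. On days 11 and 13 against days 10, 12 and 14, whose mean day is the same, NSF and SV2B were higher and SYT13 and RAB3B lower, against 6.46% of all genes tested called, 2.44% higher and 4.02% lower. SV2B was the largest of these, by 0.72 ± 0.16 (adjusted p = 0.00567). It had 2.75, 3.43 and 3.43 CPM on day 11 and 3.54, 2.14 and 2.89 CPM on day 13, against 1.56, 1.85 and 1.27 CPM on day 10, 1.98, 1.69 and 2.32 CPM on day 12 and 1.96, 2.11 and 1.92 CPM on day 14. The 2 sets overlapped in 1 library of day 12, and the call was lost without replicate 1 (0.084) and without replicate 3 (0.14). The calls of NSF, SYT13 and RAB3B were each lost without at least 2 of the 3 replicate numbers: NSF without replicates 1 (0.12) and 3 (0.48), SYT13 without replicates 1 (0.13), 2 (0.27) and 3 (0.065), and RAB3B without replicates 1 (0.13), 2 (0.058) and 3 (0.18).

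A list of 80 other synaptic genes, of which 78 were tested, gives the setting. On day 1 against day 0, 19 of them were higher and 38 lower, with a median log2 change of -0.24. On day 4 against day 1, 28 were higher and 17 lower (median 0.11). On day 8 against day 4, 48 were higher and 16 lower (median 0.37), and on day 15 against day 8, 28 were higher and 19 lower (median 0.13). Their summed TPM was 1560 ± 18 on day 0, 1440 ± 25 on day 1, 1610 ± 22 on day 4, 2040 ± 45 on day 8 and 2020 ± 43 on day 15. No test was made between this list and the 33.

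Among these other genes, the adaptor APBA1 had 28.9 ± 0.57 CPM on day 1, against 1.16 ± 0.16 CPM on day 0 (4.63 ± 0.16, adjusted p = 5.28e-25), and CADPS, a priming factor of dense-core vesicles, had 19.2 ± 0.66 CPM on day 1, against 4.1 ± 0.48 CPM on day 0. SYT2, the fast calcium sensor of motor nerve terminals, had 20.7 ± 1.5 CPM on day 4, against 2.08 ± 0.14 CPM on day 1 (3.31 ± 0.13, adjusted p = 7.61e-23). It then fell to 18.8 ± 1.1 CPM on day 15, against 46.4 ± 2.1 CPM on day 8 (-1.31 ± 0.09, adjusted p = 1.22e-14). RPH3A, rabphilin, a partner of RAB3 proteins, had 7.74 ± 0.43 CPM on day 8, against 0.188 ± 0.0061 CPM on day 4 (5.33 ± 0.32, adjusted p = 1.2e-16). The vesicle protein SYNGR3 rose by 2.5 ± 0.19 and the dynamin DNM3 by 2.64 ± 0.23 in the same stage. SYT16 and DOC2B were higher on day 15 than on day 8, by 1.81 ± 0.13 and 1.24 ± 0.11.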

How the data were processed

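The members and gene lists were chosen with earlier results of these data known. The authors used bcl2fastq 2.20.0, RSEM and GRCh38, per the submitters' processing notes; aligner, annotation release and counting strand are not stated there. The deposited expected counts are RSEM estimates (92.5% whole numbers within 1e-09), rounded here. TPM, scaled for gene length, was deposited beside them. Identifiers without a GENCODE 29 name (338) held 0.0276% of the counts.

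Genes were tested with edgeR's quasi-likelihood model (version 4.0.16, under R 4.3.3; TMM factors, default filter by day) with day as a factor over all 45 libraries and 30 residual degrees of freedom. An exact permutation test of 3 libraries against 3 cannot go below p = 0.1. No 2 libraries of a day agreed within sampling noise (chi-square per degree of freedom at least 2.06). Any of the 33 members could be named; of the other synaptic genes at most 4, and of each marker list at most 3, called genes with the largest change and a mean of at least 5 CPM, plus REST. GFAP, AQP4 and MYOD1 were named outside this rule, after their values were seen, as defining markers. The fit was tested on simulated counts. Alternatives were DESeq2 1.42.0, its size factors in edgeR, no filter, each replicate number left out, a replicate block, a fit of the compared days alone, a 2-fold minimum, and limma 3.58.1 on log2(TPM + 1) for genes at a TPM of 1 or more in 3 libraries.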

Additional observations from a re-analysis of the deposited data

How the results depend on the processing

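Of the calls on single members and comparisons, only that of DNM1 on day 15 against day 8 changed sign. In limma on log2(TPM + 1) its log2 change was 0.02, and DNM1 was not called there (adjusted p = 0.95). The day 15 TPM of DNM1 was 52.9 ± 19.3. The counts of members called stayed within 1.5 times those reported in every comparison under the DESeq2 size factors and under the replicate block. With a 2-fold minimum, 7 members were higher and 7 lower on day 1 against day 0, 3 were lower on day 4 against day 1, 19 were higher and 0 lower on day 8 against day 4, and 5 were higher and 1 lower on day 15 against day 8. In the later comparisons the 2-fold minimum left 1 higher on day 14 against day 10 and 1 higher on day 15 against day 11, and 0 in the other directions and in days 10 against 9 and odd against even days. The shares of all genes tested given above carry no such minimum and are no background for these counts. With limma on log2(TPM + 1), 4 members were lower on day 4 against day 1, 1 higher on day 10 against day 9, 1 lower on day 14 against day 10, 1 lower on day 15 against day 11, and 1 higher and 0 lower on odd against even days. On day 15 against day 11 the members lower were 3 with no filter and 1 in the fit of those days alone. On odd against even days the members higher were 1 with DESeq2, 1 with no filter and 1 in the fit of those days alone, where 0 were lower.

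Leaving out each replicate number gave 4 to 9 members lower on day 4 against day 1, 3 to 16 lower on day 10 against day 9, 5 to 9 higher and 0 to 2 lower on day 14 against day 10, 2 to 9 higher and 2 to 5 lower on day 15 against day 11, and 0 to 5 higher and 0 to 1 lower on odd against even days. Over all results on single members, 52 calls were lost without replicate 1, 10 without replicate 2 and 30 without replicate 3; the cause was not tested. Replicate numbers did not pair the samples: of 42 pairs of neighbouring days 4 had a correlation of deviations over 0.1 (median 0.007), and the replicate block changed no call (29 higher and 1 lower on day 8 against day 4, as without it). Depth limits SYT4, SYT5 and SV2B on days 0 and 1, when they had between 5 and 24 counts over the 3 libraries of a day. It also limits SV2B on day 2 (0, 7 and 4 counts) and day 4 (5, 5 and 10 counts). The call of SV2B on day 8 against day 4 was lost in limma on log2(TPM + 1) (adjusted p = 0.17).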
